A study of Mus musculus with 6 samples.

Results

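The complement, coagulation and fibrinolysis genes of the hepatocyte, with the fibrinogen chains left out, were taken as a list of 42 gene symbols. Of these, 41 were matched to the RNA-seq table by their GENCODE M21 symbol, among the 41388 genes it holds, and 40 had a mean of at least 0.5 RPKM (reads divided by gene length in kilobases and by library size) and were tested. Klkb1, the plasma prekallikrein gene, was not matched, so its expression was not analysed here, and it appears only in the search of promoter sequences. Cfd, which encodes factor D, was matched but held 0 to 2 reads per library, under the floor of 3 reads, and no fold is given for it.

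The libraries came from primary hepatocytes of C57BL/6J mice, the parenchymal cells of the liver, freed with collagenase and left overnight in growth medium. Cells then received adenovirus at about 1000000 particles per 1000000 cells, and RNA was taken 24 h later. The virus of replicates 1, 2 and 3 carried beta galactosidase (β-gal, the control protein), and that of replicates 7, 8 and 9 carried ALOXE3, the epidermal lipoxygenase eLOX3 (n = 3 per group). Every culture was infected, so neither group shows uninfected cells, and the labels do not say whether replicates came from separate mice or cultures, so the p-values measure only the spread between these libraries.

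Hepatocytes make most of the complement and clotting proteins of the blood. Complement is started by lectins or antibody, or by the alternative loop around C3, and each route leads to cleavage of C3 and C5 and to assembly of the membrane attack complex from C5 through C9. Clotting is started by tissue factor or by contact with a surface, runs through a chain of serine proteases to thrombin and fibrin, and is held in check by antithrombin, heparin cofactor II and the protein C system. Plasmin dissolves the clot and is itself limited by antiplasmin and by carboxypeptidase B2. Several of these genes are known as acute phase genes of the liver.

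Aloxe3 itself was at 2.04, 2.06 and 1.74 RPKM in the β-gal libraries and at 42.3, 45.8 and 56.3 RPKM in the Aloxe3 libraries. Library sizes derived from the steps of the RPKM values ranged from 25521908 to 32431318 reads. The hepatocyte markers summed to 5500 to 5540 RPKM with β-gal and to 5350 to 5500 RPKM with Aloxe3, with 10 of the 11 matched markers above 0.5 RPKM, while Cps1 and Cyp2e1, abundant in intact liver, were at 0.985 and 2.17 RPKM with β-gal. Most of that sum was Alb (4520 RPKM with β-gal and 4440 with Aloxe3), and single markers went both ways. Ttr fell from 124 to 100 RPKM (adjusted p = 0.0448 in limma), while Ahsg was at 204 against 236 RPKM (adjusted p = 0.18) and Cps1 at 0.985 against 1.5 RPKM (adjusted p = 0.161), all with groups that did not overlap. Of the macrophage markers 6 of 10 passed 0.5 RPKM, and their sum was 159 to 164 RPKM with β-gal against 140 to 154 RPKM with Aloxe3, nearly all of it Cd68 (148 RPKM with β-gal), while Clec4f was at 0.047 RPKM. Endothelial markers (8 of 10 above 0.5 RPKM) summed to 39.2 to 44.7 RPKM in controls against 38 to 44.7 RPKM with Aloxe3, and stellate and fibroblast markers (2 of 10) to 3.58 to 4.14 and 3.69 to 4.09 RPKM, with Lrat at 0 in all libraries. Cholangiocyte markers (3 of 8), led by Spp1, summed to 1510 to 1590 RPKM in controls against 1580 to 1720 RPKM with Aloxe3, and neutrophil markers (0 of 6) to at most 0.558 RPKM. The part of these cell types in the results was not tested, and in whole cultures fewer cells of a type cannot be told apart from less RNA per cell.

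Across the comparison of Aloxe3 with β-gal, 1 of the 40 tested genes rose and 0 fell at an adjusted p under 0.05 in limma. The gene that rose was C6, a component of the membrane attack complex, whose mean level was 1.57-fold that of the controls. Over all 12693 genes tested, 0.355% were higher and 0.0394% lower by the same rule. At an unadjusted p under 0.05, 11 members (27.5%) were higher and 3 (7.5%) lower, against 7.31% and 5.42% of all genes tested. The 11 were C6, Kng2, Serpinf2, C3, Cpb2, Serpind1, Hc, Masp1, Kng1, F5 and C4bp, and the 3 were Vtn, C8g and F10. With limma-voom on reads derived from the RPKM values, 5 members rose (C6, Kng2, Serpinf2, C3 and Cpb2) and 0 fell, with 1.17% of all genes higher in that fit. With only genes of at least 5 RPKM, which leaves out C6, Kng2 was the 1 member that rose, beside 0.57% of all genes.

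The median log2 fold change of the 40 members was 0.05, against 0.005 over all genes tested, and 29 of the 40 (72.5%) were above 0, against 52.4% of all genes. The groups did not overlap for 14 members that were higher (35%, against 11.2% of all genes) and for 4 that were lower (10%, against 8.71%). The median deviation of the members from the β-gal mean was -0.04, 0.01 and 0.02 on the log2 scale in β-gal replicates 1, 2 and 3, and 0.09, 0.06 and 0.05 in Aloxe3 replicates 7, 8 and 9. All 3 Aloxe3 libraries thus lay above the β-gal libraries, whose medians had an SD of 0.03 (n = 3). Fold changes of single members ran from -0.18 to 0.41. Fold changes are given as log2(RPKM + 1), a scale that shrinks the change of weakly expressed genes, so the ratio of the mean RPKM is given beside it for several genes.

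**Figure D1:**
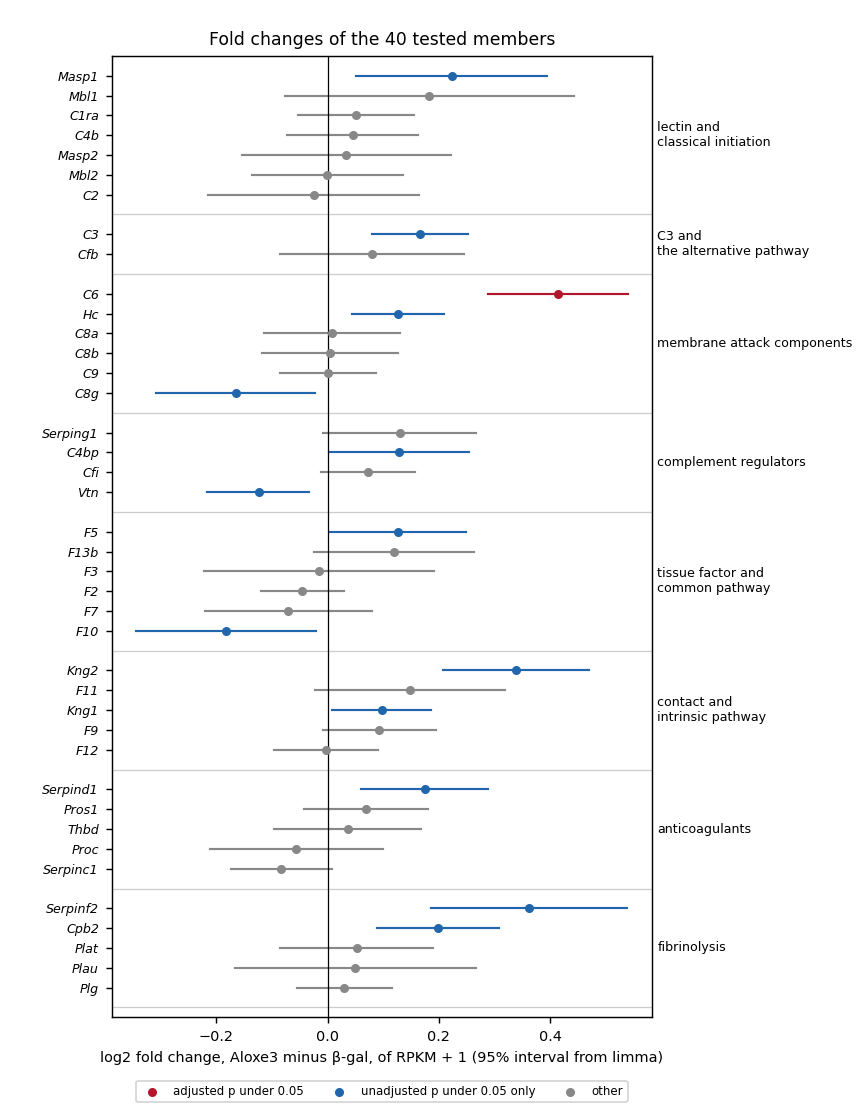
Log2 fold change of RPKM + 1 (x axis, Aloxe3 minus β-gal) of the 40 tested members (y axis, by role), with points for the limma estimate and bars for its 95% interval. C6 (0.41) is the only point past an adjusted p of 0.05, Kng2 (0.34) and Serpinf2 (0.36) come next, and F10 (-0.18) lies lowest.

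On GRCm38 with the GENCODE M21 annotation, the genes lie as follows: C6 at chr15:4727175-4814967, Kng2 at chr16:22985854-23029482, Serpinf2 at chr11:75431732-75439591, C3 at chr17:57203970-57228136 and Cpb2 at chr14:75242287-75283555. The sequences before the start are shown for 3 of the 5 members that rose in any of these fits, because the results turn on these genes. Those before C6 and Serpinf2 run into the first exon of another annotated isoform and are not printed, and that before Kng2 lies in an intron of a longer one. They are the 250 bases 5′ of the RefSeq start on GRCm38.p6, printed 5′ to 3′ in the direction of the gene, with capitals for a match to any of the 5 motifs described with the promoters at the end.
Kng2, chr16:23029102-23029351, reverse strand: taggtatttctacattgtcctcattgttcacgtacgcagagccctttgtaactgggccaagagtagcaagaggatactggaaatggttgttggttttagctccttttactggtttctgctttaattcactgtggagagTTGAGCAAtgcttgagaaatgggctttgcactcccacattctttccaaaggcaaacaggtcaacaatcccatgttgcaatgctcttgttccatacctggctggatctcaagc
C3, chr17:57228137-57228386, reverse strand: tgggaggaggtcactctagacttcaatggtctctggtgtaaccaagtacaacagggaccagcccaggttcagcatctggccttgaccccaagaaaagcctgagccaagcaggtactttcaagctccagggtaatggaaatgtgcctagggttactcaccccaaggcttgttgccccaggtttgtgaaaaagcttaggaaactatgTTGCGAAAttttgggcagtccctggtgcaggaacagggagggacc
Cpb2, chr14:75242037-75242286, forward strand: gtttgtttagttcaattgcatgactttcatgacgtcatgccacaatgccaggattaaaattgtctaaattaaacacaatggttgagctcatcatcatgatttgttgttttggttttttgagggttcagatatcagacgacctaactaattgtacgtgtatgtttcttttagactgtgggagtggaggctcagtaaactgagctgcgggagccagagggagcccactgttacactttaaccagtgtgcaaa

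Among all 5 genes, these stretches hold 1 match in Kng2, which starts 112 bases before the start, and 1 in C3, which starts 45 bases before it, both to the C/EBP motif. Those of C6, Serpinf2 and Cpb2 hold none of the motifs searched.

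As a sum, the 41 matched members took 0.51% to 0.532% of all RPKM in the β-gal libraries and 0.543% to 0.562% in the Aloxe3 libraries. The summed level was 1719, 1775 and 1786 RPKM in the controls and 1886, 1870 and 1851 RPKM with Aloxe3. C3 alone held 31.6% to 31.8% of this sum with β-gal and 33.2% to 34% with Aloxe3. Without C3 the sums were 1173 to 1219 RPKM and 1235 to 1255 RPKM, so the groups did not overlap either way. Levels of the tested members in the control cells spanned from 1.36 RPKM for Mbl1 to 558 RPKM for C3, with a median of 13.8 RPKM.

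**Figure D2:**
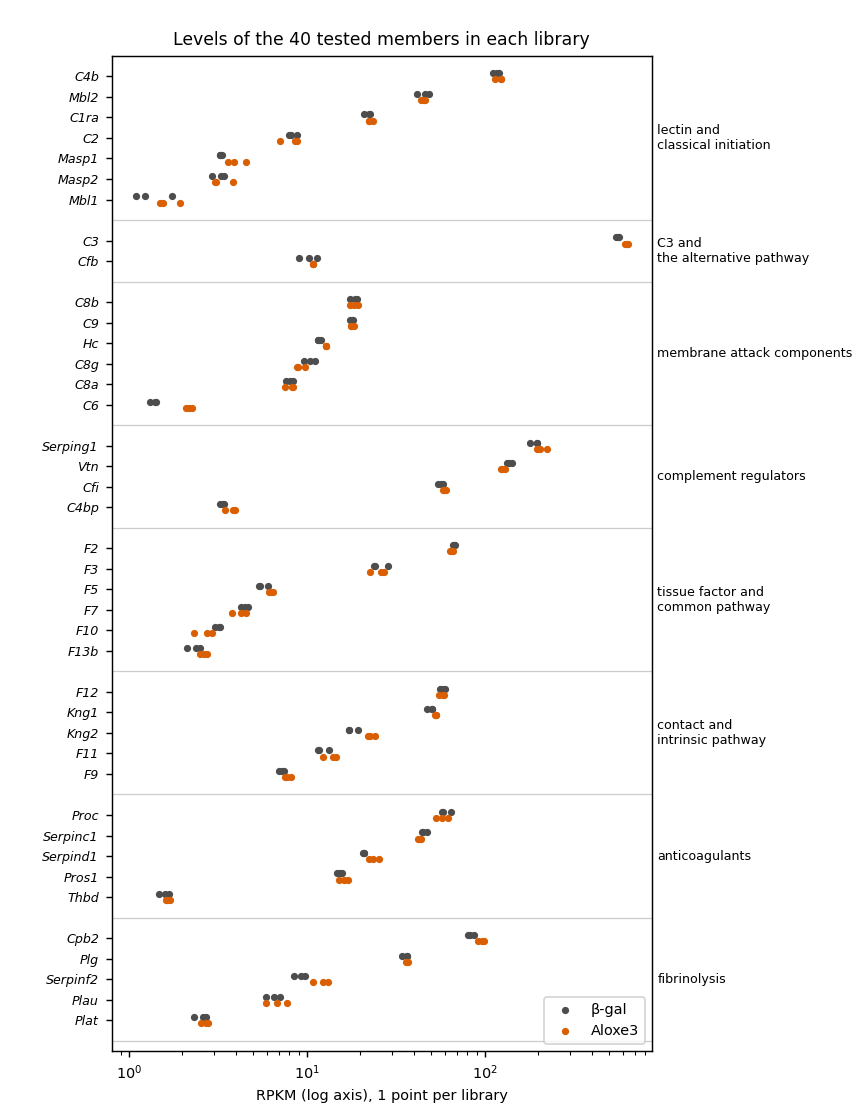
RPKM on a log axis (x) of the 40 tested members (y, by role), with 1 point per library, dark for β-gal and orange for Aloxe3. C3 lies highest, near 558 RPKM with β-gal. Mbl1, C6 and Thbd lie lowest, with β-gal means between 1.36 and 1.58 RPKM. Their single libraries run from 1.1 RPKM (Mbl1, β-gal replicate 3) to 2.26 RPKM (C6, Aloxe3 replicate 7). For most members the points of both groups lie close together.

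Among the 7 genes that start the lectin and classical routes, 0 passed the test. Masp1, which encodes a serine protease that travels with mannose-binding lectin, was at 3.25, 3.25 and 3.34 RPKM with β-gal and at 4.58, 3.59 and 3.88 RPKM with Aloxe3. The groups did not overlap, and Aloxe3 replicate 7 was the highest. Its log2 fold change of 0.22 with an SE of 0.073 (adjusted p = 0.295 in limma) corresponded to a ratio of means of 1.22. Without Aloxe3 replicate 7 it was 0.14. C4b, the fourth complement component and the most abundant of the 7, was at 111, 118 and 121 RPKM with β-gal and at 124, 124 and 114 RPKM with Aloxe3, and the groups overlapped (log2 fold change 0.05, 95% interval -0.07 to 0.16). With 1 library left out this estimate ran from 0.01 (β-gal replicate 1) to 0.09 (Aloxe3 replicate 9). Mannose-binding lectin 2 (Mbl2) was at 45.4 ± 3.63 and 45.3 ± 1.15 RPKM (SD, n = 3 each), and its paralog Mbl1 at 1.36 ± 0.335 and 1.67 ± 0.248 RPKM. The proteases C1ra (22 ± 0.98 and 22.8 ± 0.785 RPKM) and Masp2 (3.22 ± 0.243 and 3.33 ± 0.435 RPKM) and the C4-binding partner C2 (8.3 ± 0.492 and 8.18 ± 0.98 RPKM) overlapped between groups as well.

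C3, the protein on which all routes converge, was at 546, 562 and 567 RPKM with β-gal and at 630, 635 and 614 RPKM with Aloxe3. The lowest Aloxe3 library was above the highest control, and the SDs were 10.6 and 11.1 RPKM. The log2 fold change was 0.17 with an SE of 0.037, a ratio of 1.12, with an adjusted p of 0.168 in limma and of 0.0273 with limma-voom. Factor B (Cfb), the protease of the alternative loop, was at 10.3 ± 1.17 RPKM in the controls against 10.9 ± 0.0464 RPKM (SD, n = 3 each), inside the range of the controls.

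The membrane attack genes differed among themselves. C6 was at 1.41, 1.31 and 1.43 RPKM with β-gal and at 2.26, 2.18 and 2.1 RPKM with Aloxe3, from at least 171 reads in every library. All Aloxe3 libraries lay well above all controls. The log2 fold change was 0.41 with an SE of 0.054 (adjusted p = 0.0272 in limma), or 0.65 with limma-voom, which has no pseudocount in RPKM. Leaving out any 1 library ended this call, with an adjusted p between 0.081 and 0.142, while the log2 fold change stayed between 0.39 and 0.43.

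Hc, the gene of complement C5, was at 11.6, 11.6 and 12.1 RPKM with β-gal and at 12.9 RPKM in each Aloxe3 library. The groups did not overlap, with a log2 fold change of 0.13 with an SE of 0.036 (adjusted p = 0.255 in limma). C8g, the gamma chain of C8 and a lipocalin, was at 9.63, 11.1 and 10.5 RPKM with β-gal and at 9.82, 8.95 and 8.79 RPKM with Aloxe3. Its log2 fold change was -0.17 with an SE of 0.061 (adjusted p = 0.334 in limma), and Aloxe3 replicate 7 lay above β-gal replicate 1. The alpha and beta chains of the same protein had estimates near 0. C8b was at 18.7, 19.2 and 17.4 RPKM with β-gal and at 17.6, 18.4 and 19.5 RPKM with Aloxe3 (log2 fold change 0.005, 95% interval -0.12 to 0.13, and -0.04 without β-gal replicate 3). For C8a the interval was -0.12 to 0.13, at 8.03 ± 0.411 and 8.08 ± 0.428 RPKM (SD, n = 3 each). For C9, the pore-forming unit, it was -0.09 to 0.09, at 17.9 ± 0.457 and 17.9 ± 0.403 RPKM. C7, the component between C6 and C8 and not in the list, was listed at 0 in every library.

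**Figure D3:**
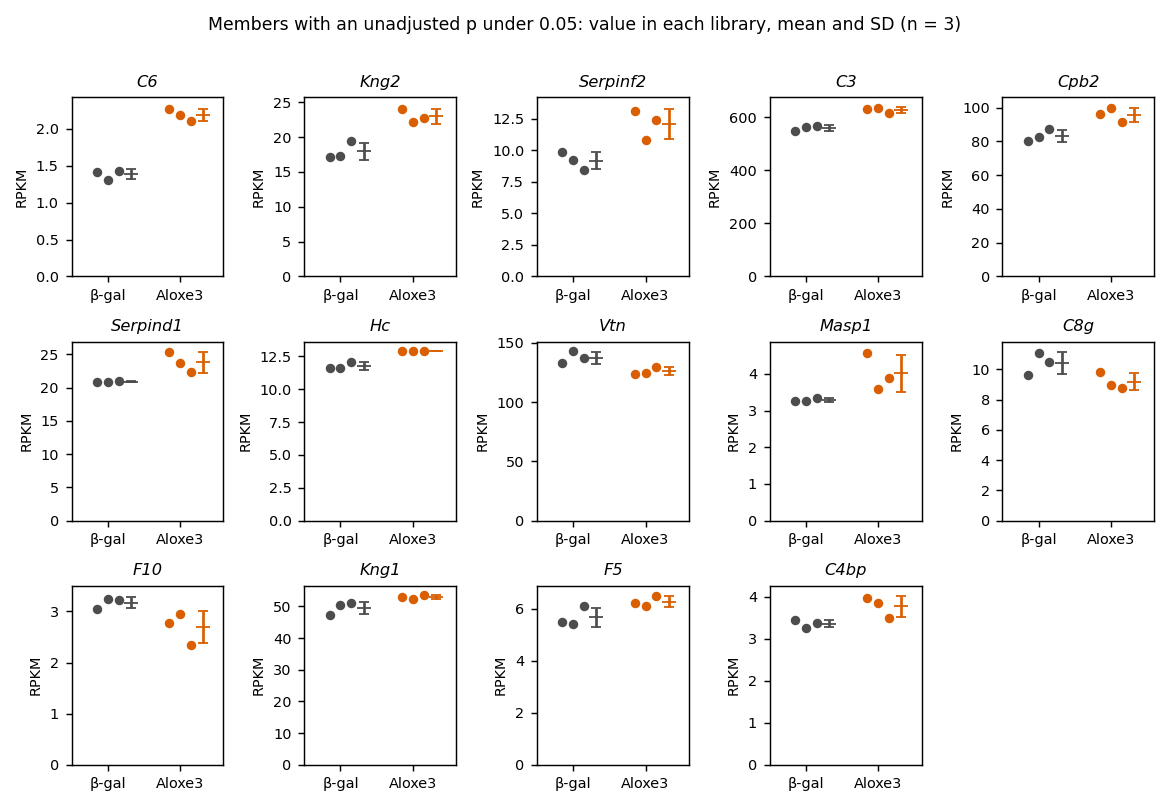
RPKM (y axis, from 0) in each library of the 14 members with an unadjusted p under 0.05, ordered by p, with β-gal dark and Aloxe3 orange, and with the mean and SD (n = 3) beside the points. C6 is at 1.31 to 1.43 RPKM against 2.1 to 2.26 RPKM, while for C8g the points of both groups overlap.

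Of the 4 complement regulators, 0 passed the test. The groups did not overlap for all 4, of which 3 were higher and 1 lower, where 11.2% and 8.71% of all genes did so. Serping1, the C1 inhibitor that also blocks the contact proteases, was at 179, 198 and 196 RPKM with β-gal and at 205, 198 and 224 RPKM with Aloxe3. The highest control and the lowest Aloxe3 library were nearly equal, and the log2 fold change was 0.13 with an SE of 0.059 (adjusted p = 0.417 in limma). It was 0.08 without Aloxe3 replicate 9 and 0.09 without β-gal replicate 1. C4bp, which holds C4b in check, was at 3.45, 3.27 and 3.37 RPKM against 3.98, 3.85 and 3.49 RPKM, a ratio of 1.12 and a log2 fold change of 0.13 with an SE of 0.054 (adjusted p = 0.385 in limma). Factor I (Cfi), the protease that cuts C3b and C4b, was at 56.6 ± 1.69 and 59.6 ± 1.1 RPKM (SD, n = 3 each). Vitronectin (Vtn), which binds the forming membrane attack complex, was the regulator with lower values, at 133, 143 and 137 RPKM in the controls against 124, 125 and 130 RPKM with Aloxe3. Its log2 fold change was -0.12 with an SE of 0.039 (adjusted p = 0.289 in limma).

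In the tissue factor and common pathway, 0 of 6 genes passed the test. F10, the protease that makes thrombin, was at 3.04, 3.25 and 3.23 RPKM with β-gal and at 2.77, 2.95 and 2.34 RPKM with Aloxe3. As reported it had the lowest fold change of the members, -0.18 (SE 0.07, adjusted p = 0.343 from limma), at a ratio of means of 0.846. Aloxe3 replicate 9 had the lowest value, and without that library Vtn (-0.145) and C8g (-0.137) lay below F10 (-0.113). Its cofactor F5 was at 5.49, 5.41 and 6.1 RPKM against 6.21, 6.11 and 6.5 RPKM, a ratio of 1.11 and a log2 fold change of 0.13 with an SE of 0.053 (adjusted p = 0.377 in limma), with groups that barely parted. Prothrombin (F2), the most abundant of the 6, was at 67.4, 66.4 and 68.1 RPKM with β-gal and at 65.3, 66.2 and 64.1 RPKM with Aloxe3 (log2 fold change -0.05, 95% interval -0.12 to 0.03, and -0.004 with quantile normalization). Tissue factor (F3), the starter of clotting, was at 25.6 ± 2.81 and 25.3 ± 2.37 RPKM (SD, n = 3 each). Its partner F7 was at 4.47 ± 0.189 and 4.22 ± 0.4 RPKM, and F13b, the carrier chain of the fibrin-linking enzyme, at 2.35 ± 0.212 and 2.64 ± 0.109 RPKM, both with overlapping groups.

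Of the contact and intrinsic genes, 0 of the 5 tested passed. The 2 kininogen genes, which encode the cofactor of contact activation and source of bradykinin, lie near each other on chromosome 16. Kng2 was at 17.2, 17.3 and 19.4 RPKM with β-gal and at 24.1, 22.1 and 22.7 RPKM with Aloxe3. The groups stood clearly apart, with a ratio of means of 1.28 and a log2 fold change of 0.34 with an SE of 0.056. The adjusted p was 0.0733 in limma, 0.0321 among genes of at least 5 RPKM and 0.0041 with limma-voom. Kng1 was at 47.3, 50.3 and 50.9 RPKM with β-gal and at 53, 52.4 and 53.5 RPKM with Aloxe3, a log2 fold change of 0.1 with an SE of 0.038 (adjusted p = 0.357 in limma). Of the 50-base windows in the annotated transcripts, 17.2% of those of Kng1 and 19.4% of those of Kng2 also occur in the other gene, and reads from these could not be assigned to either by unique alignment.

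F12, the protease of contact activation, was at 59.6, 57.8 and 56 RPKM with β-gal and at 59.2, 58.4 and 55.6 RPKM with Aloxe3, with an estimate near 0 (95% interval -0.1 to 0.09). F11 was at 12.3 ± 0.997 and 13.7 ± 1.15 RPKM and F9, the factor lacking in hemophilia B, at 7.25 ± 0.239 and 7.8 ± 0.285 RPKM (SD, n = 3 each). Neither passed the test, and the groups overlapped for F11 but not for F9.

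Among the 5 anticoagulant genes, 0 passed the test. Serpind1, which encodes heparin cofactor II, an inhibitor of thrombin, was at 20.9, 20.8 and 21 RPKM with β-gal and at 25.4, 23.7 and 22.3 RPKM with Aloxe3. The controls were close to each other (SD 0.104 RPKM) and the Aloxe3 libraries spread more widely (SD 1.56 RPKM), all above them. The log2 fold change was 0.17 with an SE of 0.049 (adjusted p = 0.254 in limma). Antithrombin (Serpinc1), the main inhibitor of thrombin and F10, was at 45.7 ± 1.73 and 43.1 ± 0.887 RPKM (SD, n = 3 each), lower in all Aloxe3 libraries without passing the test. Protein C (Proc) was at 64.6, 57.4 and 58.5 RPKM against 62.4, 57.9 and 53.3 RPKM, overlapping throughout, with a 95% interval of -0.21 to 0.1. Its log2 fold change was -0.06, and -0.11 to 0.001 with 1 library left out, lowest without Aloxe3 replicate 7 and highest without replicate 9. Its cofactor protein S (Pros1) was at 15.3 ± 0.496 and 16.1 ± 0.88 RPKM. Thrombomodulin (Thbd), its activating receptor and best known from endothelium, was at 1.58 ± 0.108 and 1.65 ± 0.0488 RPKM.

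Among the 5 fibrinolysis genes, 0 passed the test in the main comparison, and the 2 that passed with limma-voom both encode inhibitors of clot lysis. Serpinf2, the gene of alpha-2-antiplasmin, was at 9.83, 9.26 and 8.47 RPKM with β-gal and at 13.1, 10.8 and 12.4 RPKM with Aloxe3. The groups did not overlap, and the ratio of means was 1.32. Its log2 fold change was 0.36 with an SE of 0.076, with an adjusted p of 0.14 in limma and 0.0204 with limma-voom. Cpb2, the carboxypeptidase that removes the plasmin-binding ends of fibrin, was at 80.1, 82.7 and 87.1 RPKM against 96.1, 99.8 and 91.3 RPKM, again with no overlap. Its log2 fold change was 0.2 with an SE of 0.047, with an adjusted p of 0.196 in limma and 0.0494 with limma-voom.

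Plasminogen (Plg), the precursor of plasmin, was at 35.8 ± 1.2 and 36.6 ± 0.514 RPKM (SD, n = 3 each), with a 95% interval of its log2 fold change from -0.06 to 0.12. Its activators, urokinase (Plau, 6.53 ± 0.616 and 6.81 ± 0.901 RPKM) and tissue plasminogen activator (Plat, 2.55 ± 0.202 and 2.68 ± 0.112 RPKM), overlapped between groups. The intervals of the fold change were -0.17 to 0.27 for Plau and -0.09 to 0.19 for Plat, the former wide enough to hold the estimate of Cpb2.

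**Figure D4:**
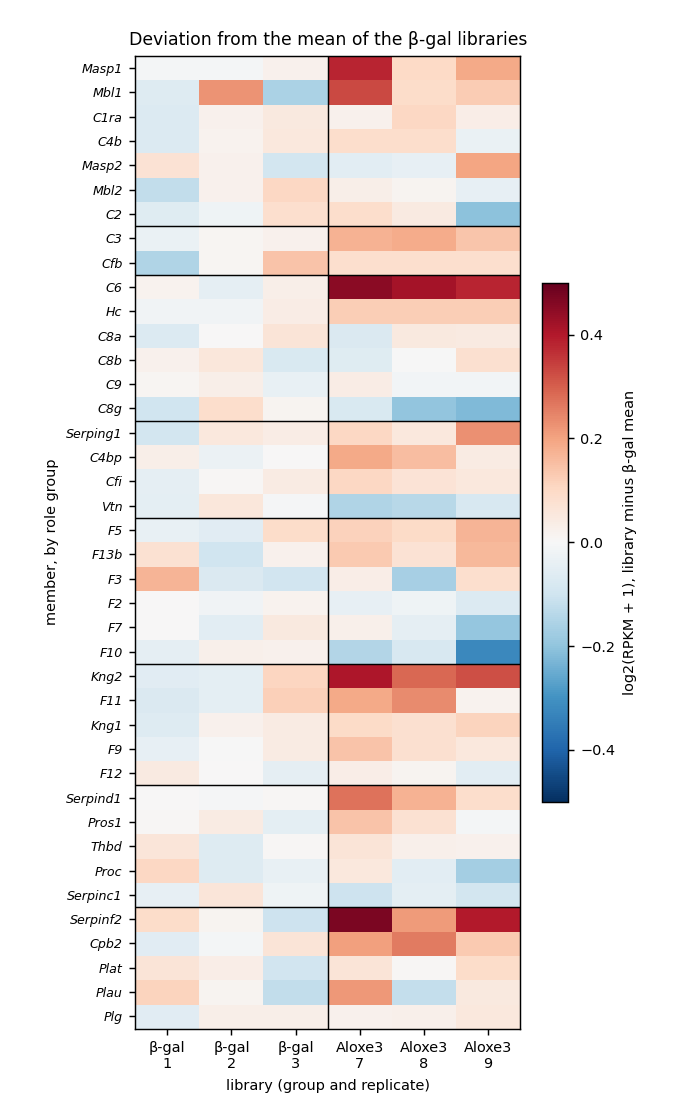
Colour gives log2(RPKM + 1) of each library minus the mean of the β-gal libraries, for the 40 tested members (rows, in role groups parted by lines) and the 6 libraries (columns). C6, Kng2 and Serpinf2 are red in all 3 Aloxe3 columns, and for Masp1 and Serpind1 Aloxe3 replicate 7 is the darkest.

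Split by system, 15 of the 19 tested complement genes and 14 of the 21 tested coagulation and fibrinolysis genes had a log2 fold change above 0 (52.4% over all genes), with medians of 0.05 in both. At an unadjusted p under 0.05, 5 complement genes were higher and 2 lower, and of the coagulation and fibrinolysis genes 6 were higher and 1 lower, beside 7.31% and 5.42% of all genes. The role group with the lowest median was tissue factor and the common pathway (-0.03, with 2 of 6 genes above 0). In the fibrinolysis group 5 of 5 genes were above 0 with a median of 0.05. These counts describe the lists and were not tested against other genes.

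A wider list of 67 complement, coagulation and fibrinolysis genes that are no members had 47 genes tested, of which 0 passed in limma. Of these, 3 were higher and 6 lower at an unadjusted p under 0.05 (6.38% and 12.8%, against 7.31% and 5.42% of all genes). With limma-voom 4 passed, 3 of them higher and 1 lower, where 1.17% of all genes were higher and 0.205% lower. The median log2 fold change was -0.002, and 23 of the 47 were above 0. Serpina10, which encodes the protein Z-dependent inhibitor of F10, was at 3.24, 3.17 and 3.67 RPKM with β-gal and at 6.24, 5.12 and 4.87 RPKM with Aloxe3, a ratio of 1.61 (log2 fold change 0.55, SE 0.086, adjusted p = 0.0553). Its groups stood well apart, and it passed with limma-voom (adjusted p of 0.00135).

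Habp2, a plasma protease that can activate F7, had a log2 fold change of 0.27 with an SE of 0.052, a ratio of means of 1.24 (adjusted p = 0.118 in limma and 0.04 with limma-voom). Anxa2, which gathers plasminogen and its activator on cell surfaces, had -0.23 (SE 0.06, adjusted p = 0.24 in limma and 0.0321 with limma-voom), and Serpina1a, an antitrypsin gene of a family of near-identical copies, -0.11 (SE 0.032, adjusted p = 0.262). Of C1q, which macrophages make, C1qa was at 1.64 ± 0.574 RPKM in the controls against 1.34 ± 0.534 RPKM and C1qb at 2.06 ± 0.41 against 2.05 ± 0.164 RPKM (SD, n = 3 each). The 7 genes of the vitamin K cycle and factor secretion, the first of which modifies F2, F7, F9 and F10, had log2 fold changes from -0.19 to 0.07 and 0 passed. The fibrinogen chains, the final substrate of the cascade, rose in the same fit, with log2 fold changes of 0.98 (Fga), 0.64 (Fgb) and 0.87 (Fgg) and adjusted p from 0.00507 to 0.00781 in limma. Without Aloxe3 replicate 7 the adjusted p of Fga was 0.0542 and that of Fgg 0.0545, and without β-gal replicate 1 that of Fgg was 0.0577.

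**Figure D5:**
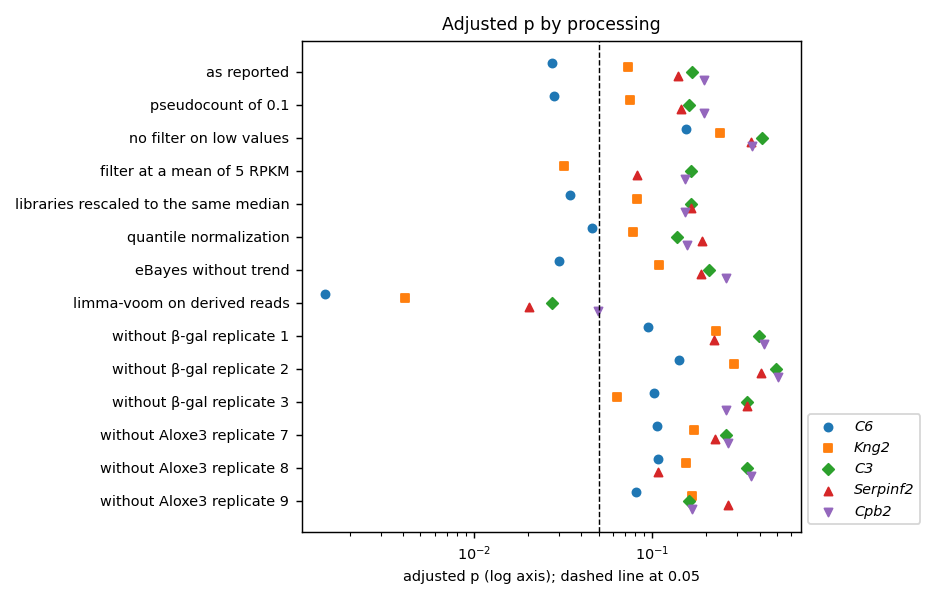
Adjusted p (x, log axis, dashed line at 0.05) of the 5 members that passed in any fit, under the reported processing and 13 alternatives (y). C6 lies left of the line as reported (0.0272) and right of it without a filter and whenever 1 library is left out (at a filter of 5 RPKM it was not tested), and limma-voom on derived reads is the 1 setting that puts all 5 left of it.

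The 5 motifs were searched on both strands of the 250 bases before each start in the RefSeq promoter table, which holds 31 entries for 30 of the 42 members and 32851 in all. The STAT motif TTCNNNGAA occurred in 4 of the 31 (12.9%, against 7.02% of all entries), before C8a, F9, Masp2 and Pros1. The C/EBP motif TTGCNNAA occurred in 6 (19.4%, against 9.56%), before C3, C9, F11, F9, Kng2 and Klkb1, the last of which has no expression value here. The HNF1 motif GTTAATNAT occurred in 3 (9.68%, against 0.737%), before C4bp, F13b and Hc, at 64, 54 and 77 bases before the start. The HNF4 motif CAAAGTCCA and the NF-kB motif GGGACTTTC occurred in 0 of the 31, against 0.384% and 0.289% of all entries. A match is a description of these letters and not a bound site, and members were not compared with each other by motif.

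Some members share sequence with neighbours, and reads that fit more than 1 gene were not counted. Of the 50-base windows of C1ra, 48% also occur in C1rb (0 to 2 reads per library), and of those of C4b 34.6% occur in C4a, which was at 0.8 ± 0.0437 and 0.921 ± 0.154 RPKM (SD, n = 3 each). Windows of Masp2 are shared with the overlapping gene Tardbp (52.5%), those of Serpinc1 with Zbtb37 (33.1%), and those of Cfb with Gm20547 (73%). Those of C2 are also shared with Gm20547 (38.7%), and those of Plg with Slc22a3 (10.2%). For C6, C3, Serpinf2, Cpb2, Serpind1 and Vtn no window was shared with another gene.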

How the data were processed

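Per the labels and the study's methods, the authors sequenced poly-A RNA as single reads of 50 bases, aligned them with STAR 2.0.4b to GRCm38 (p2), summed per gene, by featureCounts 1.4.5, the reads with a single alignment and a single gene, and deposited 41388 genes as RPKM. The step from counts to RPKM is not given in the sources used here, and the library protocol names no step that keeps strand. Of the gene identifiers, 40340 matched a GENCODE M21 symbol.

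A pseudocount of 1 RPKM was added before taking log2, genes averaging under 0.5 RPKM over the libraries were dropped (12693 stayed), and groups were compared with limma 3.58.1 in R 4.3.3 (group as the only term, eBayes with trend, two-sided, Benjamini-Hochberg adjustment over all genes tested, threshold 0.05). An exact permutation test of 3 libraries against 3 cannot give a two-sided p below 0.1. Reads per library and gene were derived from the whole-number steps of the RPKM values within 0.02 of a whole number, with the GENCODE exon length for 16548 genes and otherwise with the smallest length that fits, so that reads of the latter are lower bounds. Replicate pairs differed by more than sampling noise (chi-square per degree of freedom of at least 3.41), and pairs of Aloxe3 replicate 9 by most (10.2 and 11.4). The scripts were tested on simulated reads.

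Values in every library are given for members with an unadjusted p under 0.05 and for the most changed and most abundant member of each of the 8 role groups. Of other pathway genes the rule takes the 5 with the smallest p, since 0 passed, and 1 of them is not reported here. C7, C1q, C1rb, C4a and genes sharing windows were named after their values were seen. The members, lists and alternatives were chosen with earlier results of these data known, and support nothing independently. Alternatives were a pseudocount of 0.1, no filter, a filter at 5 RPKM, equal library medians, quantile normalization, eBayes without trend, limma-voom on derived reads, and each library left out in turn.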

Additional observations from a re-analysis of the deposited data

How the results depend on the processing

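The count of members that rose, 1 as reported, was 0 without a filter on low values, 5 with limma-voom on derived reads and 0 to 0 with 1 library left out, and it was 1 under the other 5 alternatives, although with a filter at 5 RPKM the gene was Kng2 instead of C6. C6 had an adjusted p of 0.0942, 0.142 and 0.102 without β-gal replicates 1, 2 and 3, of 0.106, 0.108 and 0.081 without Aloxe3 replicates 7, 8 and 9, and of 0.155 without a filter, where 24989 genes were tested. No member fell under any of the 13 alternatives. Of the other pathway genes 4 passed with limma-voom and 0 under the other alternatives. Over all genes, 50 passed as reported, 7 without a filter, 174 with limma-voom, and 6 to 19 with 1 library left out. The median of the members ranged from 0.04 to 0.07 and the members with an unadjusted p under 0.05 from 9 (without β-gal replicate 2) to 16. Estimates near 0 changed sign. C8b was -0.009 when libraries were given equal medians and ran from -0.035 (leaving out β-gal replicate 3) to 0.038 with 1 library left out. F12 was 0.021 with quantile normalization and ran from -0.025 to 0.024, above 0 when β-gal replicate 1 (0.019) or Aloxe3 replicate 9 was left out. Proc ran from -0.111 to 0.001, the latter lacking Aloxe3 replicate 9, as did a C8b value of -0.032. None of these passed a test, and the cause was not tested. Of 358 values of the 28 named genes under the alternatives, 329 kept their direction and their side of the threshold. Fga and Fgg lost their call without Aloxe3 replicate 7 (adjusted p 0.0542 and 0.0545), Fgg also without β-gal replicate 1 (0.0577), and all 3 fibrinogen chains without a filter. Single deviating libraries were not searched for in groups of 3. No paired analysis was run, because the groups share no replicate number and no label ties a library of 1 group to a library of the other. The summed endothelial markers were at 44.7, 39.2 and 40.7 RPKM in β-gal replicates 1, 2 and 3 and at 44.7, 38 and 40.2 RPKM in Aloxe3 replicates 7, 8 and 9. Whether libraries of both groups share a preparation is not given in the labels and was not tested.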
